A study of Mus musculus with 7 samples.

Results

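The 10 genes described here, Atf4, Ddit3, Chac1, Mthfd2, Asns, Trib3, Psat1, Phgdh, Vldlr and Sesn2, belong to the amino acid stress response that the transcription factor ATF4 directs. They were taken by name: a probe set belonged to a gene when the array annotation gave that symbol and no other. This yielded 148 of the 1201338 probe sets on the array, and all 10 genes were among the 16353 genes tested. RNA came from J-1 mouse embryonic stem cells, all of them infected with lentiviruses that carried a short hairpin RNA and grown in full medium. The control hairpin was directed against luciferase, a gene that mouse cells lack, in 3 samples. Mettl3 hairpin 1 was used in 2 samples and Mettl3 hairpin 2 in another 2. The METTL3 protein is the methyltransferase that writes N6-methyladenosine on RNA, and the design asks what its loss does to gene expression. Each sample was hybridised to 1 exon array, with expression given in log2 units. Whether replicates were separate cultures is not stated in the labels; p-values therefore reflect only how far these samples spread, and that spread may be technical.

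When amino acids run short or misfolded protein builds up in the endoplasmic reticulum, kinases phosphorylate the initiation factor eIF2. General translation then falls while ATF4 protein is made from existing Atf4 mRNA. ATF4 pairs with C/EBP proteins and other partners to raise genes for amino acid synthesis, amino acid uptake, glutathione turnover and feedback control. Serine synthesis and mitochondrial folate enzymes, which are among its targets, also supply dividing stem cells with one-carbon units. The arrays measured RNA; ATF4 protein and eIF2 phosphorylation were not analysed here.

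Because ATF4 and its partners bind a composite site, the windows around the RefSeq start sites of the genes (build GRCm38.p6, 250 bases before and 50 after each start) were searched for its letters. The site was written TGATGNAA, or TTNCATCA on the other strand, and both strands were searched. It was present in the windows of 4 of the 10 genes, Chac1, Asns, Trib3 and Vldlr, which is 4 of the 12 windows that the table lists for them. It was found in 3.97% of all 32851 windows. A cyclic AMP response element written TGACGTNA, also searched on both strands, was in none of the 12 windows and in 2.93% of all. A match is a description of letters and not of binding. Sites outside these windows were not searched for, so a gene without a match here may hold one elsewhere. The stretches that hold a match are shown because these genes differed in how they moved, with the matching letters in capitals. For Chac1 (chr2:119350992-119351241, plus strand) the match begins 193 bases before the start, for Vldlr (chr19:27216770-27217019, plus strand, the downstream of its pair of windows) 200 bases before and for Asns (chr6:7693210-7693459, minus strand) 23 bases before. For Trib3 (chr2:152344028-152344057, minus strand) it begins 14 bases past the start, and only 30 bases are shown.
Chac1: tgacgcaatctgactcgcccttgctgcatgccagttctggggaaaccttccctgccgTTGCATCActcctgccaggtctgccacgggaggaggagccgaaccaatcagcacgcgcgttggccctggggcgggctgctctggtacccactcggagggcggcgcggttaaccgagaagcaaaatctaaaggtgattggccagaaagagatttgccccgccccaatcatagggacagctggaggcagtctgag
Vldlr: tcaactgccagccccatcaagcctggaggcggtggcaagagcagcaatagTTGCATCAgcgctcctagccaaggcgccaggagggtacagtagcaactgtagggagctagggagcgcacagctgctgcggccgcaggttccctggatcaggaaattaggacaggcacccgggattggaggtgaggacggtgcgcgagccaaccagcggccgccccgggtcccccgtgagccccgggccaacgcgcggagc
Asns: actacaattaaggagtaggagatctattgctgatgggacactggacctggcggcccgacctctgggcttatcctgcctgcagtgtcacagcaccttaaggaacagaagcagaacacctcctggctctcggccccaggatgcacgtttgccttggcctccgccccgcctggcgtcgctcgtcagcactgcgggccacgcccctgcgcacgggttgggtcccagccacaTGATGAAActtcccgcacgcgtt
Trib3: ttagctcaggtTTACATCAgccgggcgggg

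A gene value was the median of the gene's bright probe sets. A probe set was bright when its mean over all 7 arrays, knockdown ones included, exceeded 6.02, the whole array's median. Genes were called at a limma adjusted p (Benjamini-Hochberg over all 16353 genes) below 0.05. By gene value the targeted gene, Mettl3, averaged 10.33 ± 0.16 (SD, n = 3) on luciferase arrays. It averaged 8.82 ± 0.21 (SD, n = 2) where hairpin 1 was used and 8.69 ± 0.03 (SD, n = 2) where hairpin 2 was used. All 10 embryonic stem cell markers were tested and had mean values between 10.33 and 13.33. The 9 tested fibroblast feeder markers (of 10 listed) lay between 6.54 and 7.85, and none of either list was called. Averaged over a list, stem cell markers ran from 11.99 to 12.16 on the 7 arrays and feeder markers from 7.23 to 7.41. Of 8 trophectoderm markers the keratin genes Krt8 and Krt18 rose (by 0.81 and 1.03 for both hairpins); the other 6 lay between -0.15 and 0.14 and were not called, and the list's median difference was -0.01. The list average was 7.86 to 7.96 on control arrays and 8.04 to 8.18 on knockdown arrays, a gap that these keratins carried. The part of these markers in the results was not tested. In RNA from whole cultures, fewer cells of a type and less RNA per cell cannot be told apart.

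With the mean of both Mettl3 hairpins set against luciferase, 3 of the 10 genes rose and none fell. These were Vldlr (1.37-fold), Chac1 (1.36-fold) and Mthfd2 (1.26-fold). Among all genes tested, 5.53% were called higher and 2.37% lower (904 and 388 genes, or 696 and 703 after centring arrays on their median gene). In 7 of the 10 genes (Atf4, Chac1, Mthfd2, Trib3, Psat1, Phgdh and Vldlr) all 4 knockdown arrays lay above all 3 luciferase arrays, an arrangement found in 13.4% of all genes. The median log2 difference of the 10 was 0.23, against 0.0004 for all genes, and 9 of 10 were above 0, against 50.1% of all genes. The genes were proposed with results of these arrays known, so these shares describe them and test nothing. How probe sets were combined mattered: with their mean or a median polish in place of the median, 6 of the 10 were called (Chac1, Mthfd2, Trib3, Psat1, Phgdh and Vldlr), and 2840 and 2469 of all genes. With the replicate number of the labels as a block, the number called was 1, Chac1.

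**Figure D1:**
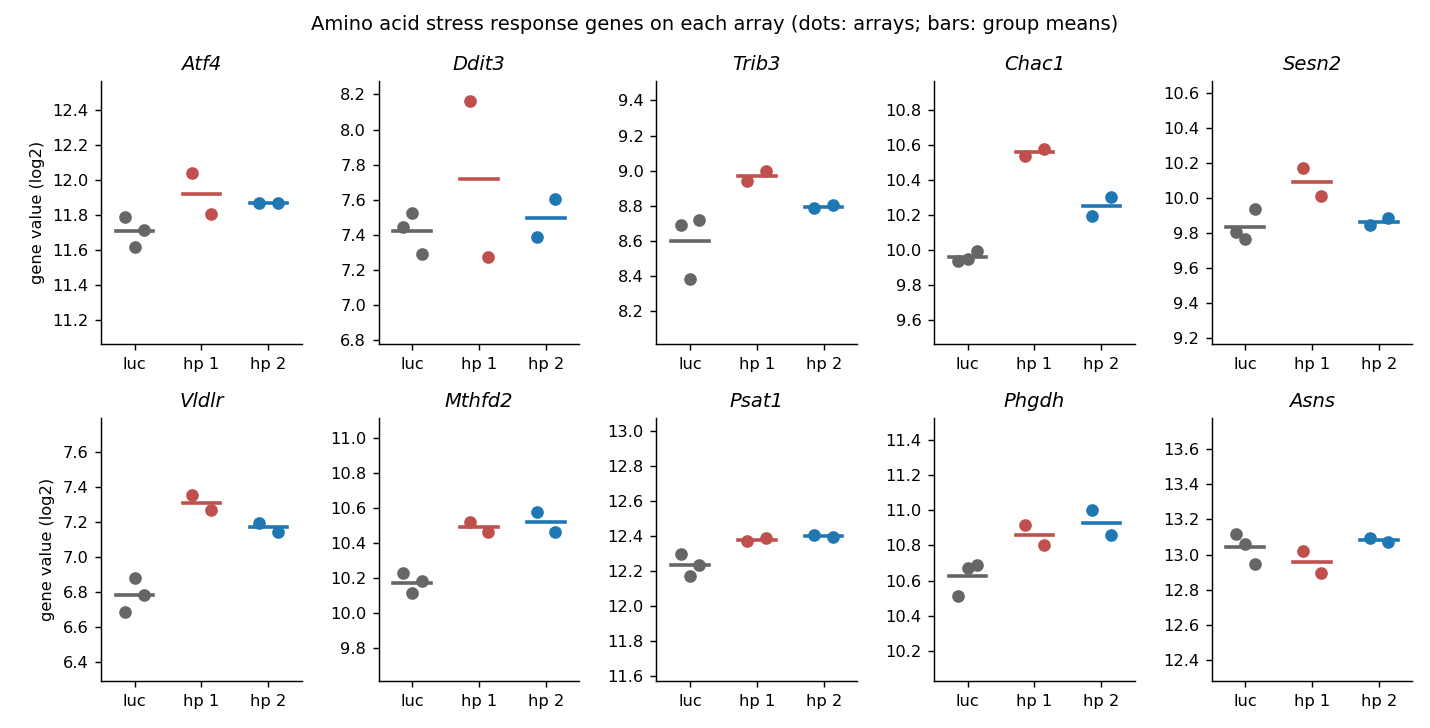
Gene values (log2) of the 10 genes on each of the 7 arrays; every panel spans the same range of 1.5 on the log2 scale, dots are arrays and bars group means (luc, luciferase hairpin; hp 1 and hp 2, Mettl3 hairpins 1 and 2). In 7 panels all 4 knockdown arrays lie above the 3 luciferase arrays, while in Asns, Ddit3 and Sesn2 the knockdown and luciferase arrays overlap; in Ddit3 2 of the 4 knockdown arrays lie above the controls and in Sesn2 those of hairpin 1.

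The transcription factors at the head of the response did not pass. Atf4 was at 11.79, 11.61 and 11.71 on the luciferase arrays, at 12.04 and 11.80 with hairpin 1 and at 11.87 and 11.86 with hairpin 2. The knockdown arrays thus lay above the controls, hairpin 1 replicate 2 by little. The log2 difference for both hairpins was 0.19 ± 0.09 (SE, adjusted p = 0.227; 95% interval -0.01 to 0.38), and it was 0.06 to 0.25 across the other ways of processing tried.

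Ddit3 encodes CHOP, a C/EBP family factor that ATF4 induces and that acts in cell death under lasting stress. It read 7.44, 7.52 and 7.29 with luciferase, 8.16 and 7.27 with hairpin 1, and 7.39 and 7.61 with hairpin 2. A single array, hairpin 1 replicate 1, stood high, and the other knockdown arrays fell within or near the control range. The difference was 0.19 ± 0.18 (SE, adjusted p = 0.558), and it was -0.04 without that array. It was -0.09 with the mean of probe sets and -0.22 with a median polish, so no direction can be given for this gene.

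Trib3 encodes a pseudokinase that is induced by ATF4 and CHOP and restrains them in turn. Its values were 8.69, 8.38 and 8.72 with luciferase, 8.94 and 8.9988 with hairpin 1, and 8.79 and 8.80 with hairpin 2. The groups did not overlap, but luciferase replicate 2 was well below the other controls, and the gap between the highest control and the lowest knockdown array was small. The difference of 0.28 ± 0.10 (SE) did not pass (adjusted p = 0.105). It was called with the mean of probe sets (0.32, adjusted p = 0.00398) and with a median polish (0.33, adjusted p = 0.00711).

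Chac1, whose product breaks down glutathione and which is a target of ATF4 and CHOP, gave the clearest difference. On luciferase arrays it was at 9.94, 9.95 and 9.99, with hairpin 1 at 10.54 and 10.58, and with hairpin 2 at 10.20 and 10.30. The controls were nearly equal and each knockdown array was above them, those of hairpin 1 highest. For both hairpins the difference was 0.44 ± 0.07 (SE, adjusted p = 0.00716). It was called under each of the 17 other ways of processing tried, leaving out each array among them (0.39 to 0.49, adjusted p = 0.000516 to 0.0413).

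Sesn2 encodes sestrin 2, a leucine sensor that holds back mTORC1. With luciferase it was at 9.81, 9.76 and 9.94, with hairpin 1 at 10.17 and 10.01, and with hairpin 2 at 9.85 and 9.88. The hairpin 1 arrays lay above the controls and the hairpin 2 arrays inside their range. Neither the mean difference (0.14 ± 0.08, SE, adjusted p = 0.326) nor the difference between hairpins (0.23, 95% interval -0.02 to 0.47, adjusted p = 0.603) passed.

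Vldlr encodes the very low density lipoprotein receptor, which rises with ATF4 under endoplasmic reticulum stress. Its level was low, at 6.68, 6.88 and 6.78 with luciferase, 7.35 and 7.27 with hairpin 1, and 7.19 and 7.14 with hairpin 2. Each knockdown array was above each control. The difference was 0.46 ± 0.08 (SE, adjusted p = 0.00882) and stayed called without any of the 7 arrays (adjusted p = 0.0158 to 0.04997). With a stricter filter, which kept probe sets above the 75th percentile of the array, it was 0.19 (adjusted p = 0.197), and with the replicate block 0.46 (adjusted p = 0.0543).

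Mthfd2, Phgdh and Psat1, enzymes of serine and folate metabolism, each read higher on all knockdown arrays than on the controls, and of these Mthfd2 alone passed. Mthfd2, a mitochondrial enzyme that oxidises one-carbon folate units, was at 10.23, 10.11 and 10.18 with luciferase, 10.52 and 10.46 with hairpin 1, and 10.58 and 10.46 with hairpin 2. Both hairpins gave like values, clear of the controls. The difference of 0.33 ± 0.08 (SE) was called (adjusted p = 0.0293), but the call was lost without any array other than hairpin 1 replicate 2 (adjusted p = 0.0647 to 0.0929). It was also lost after centring (0.28, adjusted p = 0.0614), without a filter on dim probe sets (0.33, adjusted p = 0.0791) and with the replicate block (0.34, adjusted p = 0.111).

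Phgdh, the enzyme that commits a glycolytic intermediate to serine, read 10.51, 10.67 and 10.69 with luciferase, 10.91 and 10.80 with hairpin 1, and 11.004 and 10.86 with hairpin 2. Groups did not overlap, and luciferase replicate 1 was the lowest array. The difference of 0.27 ± 0.09 (SE) did not pass (adjusted p = 0.086). It passed in 4 of 17 other ways of processing, with the stricter filter (adjusted p = 0.0391), trended and robust spreads (0.0319), the mean of probe sets (0.0145) and a median polish (0.0151).

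Psat1, the next enzyme of serine synthesis, was at 12.30, 12.17 and 12.24 with luciferase, 12.37 and 12.39 with hairpin 1, and 12.41 and 12.39 with hairpin 2. The 4 knockdown arrays were almost equal and just above the highest control. The difference was 0.15 ± 0.07 (SE, adjusted p = 0.245; 95% interval -0.01 to 0.32). Asns, which makes asparagine and is a classic marker of this response, was at 13.12, 13.06 and 12.95 with luciferase, 13.02 and 12.89 with hairpin 1, and 13.09 and 13.07 with hairpin 2. Its groups overlapped, with no knockdown array above the highest control. The difference was -0.02 ± 0.08 (SE, adjusted p = 0.899), and the 95% interval of -0.20 to 0.16 holds differences of either sign. Of the 4 genes with the composite site shown above, Chac1 and Vldlr were called, Trib3 was not by the main measure, and Asns lay near 0. Mthfd2 was called with no match in its window. Atf4, Phgdh and Psat1 had no match either, yet all their knockdown arrays lay above the controls. A link between the site and the differences was not tested.

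**Figure D2:**
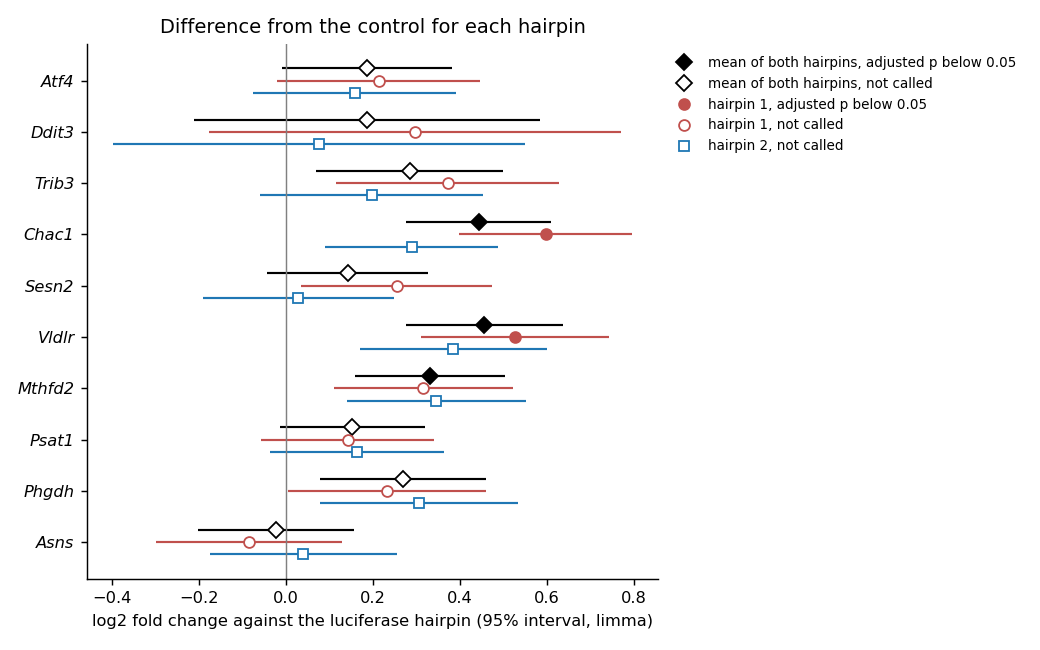
Log2 fold change of each gene against the luciferase hairpin for the mean of both hairpins (diamonds), hairpin 1 (circles) and hairpin 2 (squares), with 95% intervals from limma; filled symbols have an adjusted p below 0.05. Chac1, Vldlr and Mthfd2 are filled for both hairpins together, Chac1 and Vldlr for hairpin 1, and no gene is filled for hairpin 2.

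Each hairpin was then set against luciferase by itself; these comparisons share the same 3 control arrays. Hairpin 1 raised 2 of the 10 genes, Chac1 by 0.60 ± 0.09 (SE, adjusted p = 0.00542) and Vldlr by 0.53 ± 0.10 (SE, adjusted p = 0.0132). None fell; over all genes 3.97% were called higher and 1.93% lower with this hairpin (649 and 315 genes). Without hairpin 1 replicate 1 these were 131 and 140 genes, without hairpin 1 replicate 2 343 and 107, and without luciferase replicate 1 331 and 129. The call of Vldlr was lost without luciferase replicate 1 or hairpin 1 replicate 1, and both calls were lost without luciferase replicate 3 and hairpin 1 replicate 2 together. The last of these settings was chosen after the data were seen. With the mean of probe sets 5 of the 10 genes were called and 2259 of all genes, against 964 of all genes in the main fit. With the replicate block these were 1 and 460.

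For hairpin 2, limma called 0 of the 10 genes, where 2.71% of all genes were called higher and 1.08% lower. At an unadjusted p below 0.05 there were 4 (Chac1, Mthfd2, Phgdh and Vldlr), as there were 18.7% of all genes. The values of these genes were 0.29 for Chac1 (adjusted p = 0.114), 0.35 for Mthfd2 (0.0742), 0.31 for Phgdh (0.137) and 0.39 for Vldlr (0.06). All 10 differences were above 0, from 0.03 to 0.39, where 52.9% of all genes were above 0. With the mean of probe sets 4 were called (Chac1, Mthfd2, Phgdh and Vldlr), and 1626 of all genes, against 619 of all genes in the main fit.

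The difference between the hairpins was tested directly. Limma called 0 of the 10 genes, against 0.104% of all genes. At an unadjusted p below 0.05 there was 1 gene, Chac1, against 8.78% of all genes. Chac1 was 0.31 higher with hairpin 1 (95% interval 0.09 to 0.53, unadjusted p = 0.0104, adjusted p = 0.395). For Vldlr the difference was 0.14 (-0.09 to 0.38) and for Mthfd2 -0.03 (-0.26 to 0.20), intervals wide enough to hold differences as large as several of the changes themselves.

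An exon array carries several probe sets for a gene, which share their source RNA and are not replicates. Of the 148 probe sets, 139 were bright enough to be kept, and the 9 dim ones belonged to Vldlr (7) and Sesn2 (2). For both hairpins 115 of the 139 (82.7%) were above 0, against 54.1% of all 229811 kept probe sets. Fitted singly, 8 rose and none fell, 5.76% of the 139, where 1.73% of all kept probe sets were called higher. These calls were fragile: 0 to 3 were left when any 1 of the 7 arrays was omitted, and 0 without the filter on dim probe sets or with the replicate block.

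The 6 probe sets of Chac1 and the 10 of Mthfd2 all lay above 0, at 0.27 to 0.62 and 0.06 to 0.41. In Chac1 3 of them were called. The brightest called one, probe set 5346343, was at 11.40, 11.25 and 11.43 with luciferase, 12.12 and 12.04 with hairpin 1 and 11.77 and 11.75 with hairpin 2, the same order of groups as the gene value. Phgdh had 21 of 22 probe sets above 0 and Psat1 22 of 23, so their small differences ran along nearly the whole set. In Psat1 they were uneven, reaching 0.70 in probe set 5286929. For Sesn2 15 of 18 kept probe sets were above 0 and for Asns 7 of 15, from -0.20 to 0.22. Atf4 had 6 of 7 above 0, up to 0.28.

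The remaining genes, Ddit3, Vldlr and Trib3, had probe sets well above and well below 0. Whether they moved unequally was tested, as described further below. In Ddit3 2 of 5 were above 0 and they ran from -0.51 to 0.42, so its gene value depended on which lay in the middle. The highest, probe set 4833360, was at 7.58, 7.52 and 7.29 with luciferase, 8.26 and 8.10 with hairpin 1 and 7.58 and 7.61 with hairpin 2. The lowest, probe set 5028526, was at 6.83, 7.18 and 7.17 with luciferase, 6.55 and 6.34 with hairpin 1 and 6.98 and 6.31 with hairpin 2. Thus hairpin 1 stood above the controls in the former and below them in the latter, and neither was called (adjusted p = 0.0929 and 0.19).

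Vldlr had 18 of 24 kept probe sets above 0, from -0.53 to 1.03, and 4 were called. Its highest, probe set 5187889, was at 6.40, 6.43 and 6.24 with luciferase, 7.89 and 7.33 with hairpin 1 and 7.14 and 7.19 with hairpin 2. Its brightest, probe set 4738138, was at 10.18, 10.43 and 10.57 with luciferase, 10.0038 and 10.48 with hairpin 1 and 10.22 and 10.16 with hairpin 2, with overlapping groups. Among the 18, probe set 5005262 was at 5.37, 5.78 and 6.32 with luciferase and 4867691 at 5.78, 5.98 and 5.99. On luciferase arrays alone both averaged below the filter's 6.02, so the knockdown arrays, which the filter included, kept them in. Without the filter the Vldlr gene value differed by 0.50 (limma adjusted p = 0.0424). Trib3 had 8 of 9 above 0, from -0.26 to 0.70, and the highest was called.

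Whether probe sets of a gene moved unequally was tested by diffSplice in limma. It called 2 of the 10 genes, Trib3 (adjusted p = 0.00925) and Vldlr (adjusted p = 0.000356), and 4.97% of all genes. This test takes 1 spread for all probe sets of a gene, and on simulated data its calls held more unchanged genes than its threshold allows. With a spread of its own for each probe set, a test added after the data were seen, limma called 0 of the 10 genes and 0 of 16353. Because it called no gene at all, it cannot decide whether the probe sets of Trib3 and Vldlr moved unequally. The lowest adjusted p of the 10 in that limma test were 0.382 (Ddit3) and 0.402 (Vldlr). Leaving out replicate 1 or 3 of luciferase, replicate 1 of hairpin 1 or replicate 2 of hairpin 2 also ended the Trib3 call. The Vldlr call ended without replicate 1 of luciferase and with the stricter filter, and both calls ended with the replicate block. Positions of the probe sets along the transcripts were not used here.

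**Figure D3:**
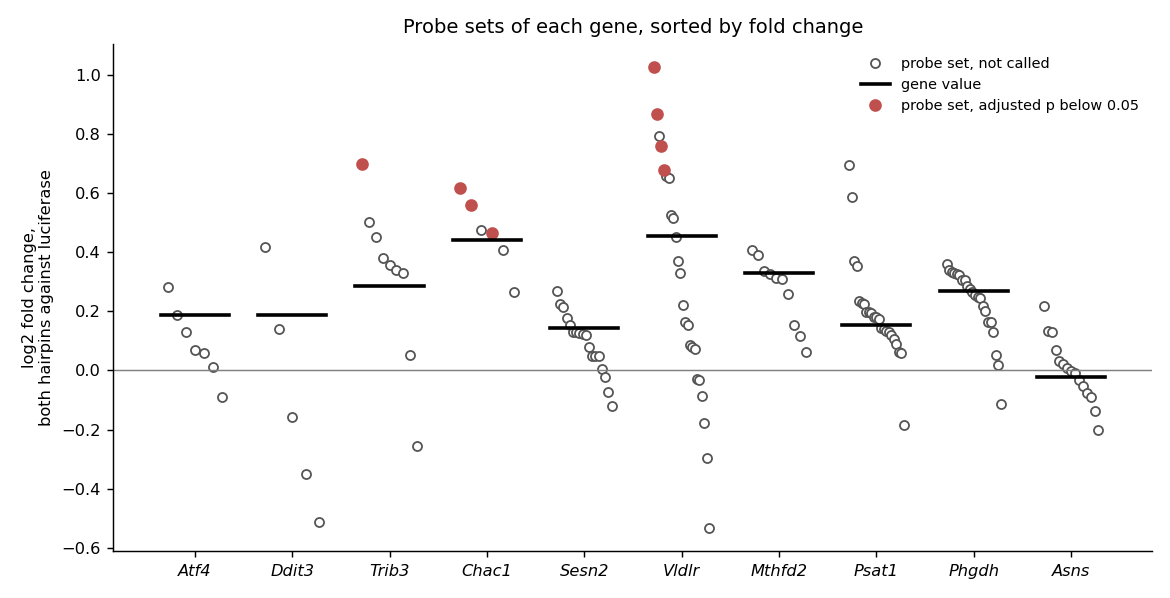
Log2 fold change of every kept probe set of the 10 genes for both hairpins against luciferase, sorted within each gene; filled dots have an adjusted p below 0.05 over all kept probe sets and bars show the gene values. Probe sets of Chac1, Mthfd2, Phgdh and Psat1 lie almost all on the upper side, whereas those of Ddit3 and Vldlr spread from about -0.5 upward.

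Other genes of the pathway were taken from 8 lists by role, of which 80 of 82 genes could be tested. For both hairpins 7 rose and none fell, 8.75% against 5.53% of all genes called higher. The median log2 difference was 0.07 and 57 of 80 were above 0, against 0.0004 and 50.1% for all genes. With hairpin 1 9 of the 80 rose and 1 fell, where 3.97% of all genes were called higher and 1.93% lower. With hairpin 2 3 rose and none fell, where 2.71% of all genes were called higher and 1.08% lower.

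Among the 6 partner transcription factors 2 rose. Atf3, a stress-induced repressor, was at 7.53, 7.33 and 7.11 with luciferase, 8.04 and 7.78 with hairpin 1 and 7.73 and 7.86 with hairpin 2 (0.53 ± 0.11, SE, adjusted p = 0.0203). Cebpg, a C/EBP protein that pairs with ATF4, rose by 0.37 ± 0.08 (SE, adjusted p = 0.0242). All 6 were above 0, with a median of 0.21. The call of Atf3 was lost without luciferase replicate 2 or 3, hairpin 1 replicate 1 or hairpin 2 replicate 2 (adjusted p = 0.0545 to 0.0781), without the filter on dim probe sets (0.0766) and with the replicate block (0.0866). That of Cebpg was lost without luciferase replicate 1 or 3, hairpin 1 replicate 1 or either hairpin 2 array (adjusted p = 0.0506 to 0.0947), without the filter (0.0563) and with the block (0.138).

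Of 9 amino acid transporters 2 rose, both of which carry small neutral amino acids. Slc1a4, which carries alanine, serine and cysteine, was at 9.14, 9.17 and 9.03 with luciferase, 9.80 and 9.72 with hairpin 1 and 9.49 and 9.58 with hairpin 2. Its groups were well apart, and the rise (0.54 ± 0.08, SE, adjusted p = 0.00373) passed with either hairpin alone and under all 17 other ways of processing. The glycine transporter gene Slc6a9 rose by 0.37 (adjusted p = 0.0261), a call lost without any luciferase array, hairpin 1 replicate 1 or hairpin 2 replicate 2 (adjusted p = 0.0608 to 0.102), without the filter (0.0789) and with the replicate block (0.102). The median of the 9 was 0.11.

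Of 12 enzymes of amino acid and one-carbon metabolism outside the 10 genes 1 rose, Gpt2, a mitochondrial alanine aminotransferase (0.45 ± 0.08, SE, adjusted p = 0.00773). It was at 9.69, 9.77 and 9.60 with luciferase, 10.24 and 10.20 with hairpin 1 and 10.04 and 10.06 with hairpin 2, and its call was lost with the replicate block (adjusted p = 0.0617). The median of the list was 0.16 and 10 of 12 were above 0. Among 6 tested other outputs of ATF4 (of 7 listed), 1 rose: Stc2, which encodes the secreted glycoprotein stanniocalcin 2. It was at 7.52, 7.51 and 7.45 with luciferase, 8.27 and 8.17 with hairpin 1 and 7.91 and 8.07 with hairpin 2 (0.62 ± 0.08, SE, adjusted p = 0.002), and it too passed with either hairpin alone.

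Among 7 tested family relatives of the 10 genes (of 8 listed) Sesn3, a sestrin gene like Sesn2, rose by 0.64 ± 0.09 (SE, adjusted p = 0.00313). It was at 8.28, 8.34 and 8.22 with luciferase, 9.04 and 8.78 with hairpin 1 and 8.87 and 9.01 with hairpin 2, which puts every knockdown array clear of the controls. Calls of Stc2 and Sesn3 held under all 17 other ways of processing.

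For both hairpins none of the other 3 lists had a called gene; with hairpin 1 alone Tars fell (-0.46, adjusted p = 0.0267) and Herpud1, of endoplasmic reticulum protein degradation, rose (0.46, adjusted p = 0.0373). Of 10 upstream kinases, phosphatase subunits and their regulators the largest differences were Ppp1r15b (0.16, adjusted p = 0.333), a subunit that directs eIF2 dephosphorylation, and Gcn1 (0.15, adjusted p = 0.235), which activates an eIF2 kinase; the list median was 0.09. Of 12 aminoacyl-tRNA synthetase genes they were Tars (-0.26, adjusted p = 0.0901) and Sars (0.25, adjusted p = 0.103), with a median of 0.06. Of 18 genes for endoplasmic reticulum chaperones and other arms of the unfolded protein response they were Manf (-0.36, adjusted p = 0.119) and the sensor gene Ern1 (0.29, adjusted p = 0.107), with a median of 0.01. Manf was at 0.04 with the mean of probe sets and 0.0049 with a median polish. Some alternatives called these genes: Ern1 with the stricter filter (0.42, adjusted p = 0.00399), the mean (0.24, adjusted p = 0.0205) and a median polish (0.25, adjusted p = 0.0221), Tars after centring (-0.32, adjusted p = 0.0381) and with trended and robust spreads (-0.26, adjusted p = 0.0327), and Sars after quantile normalization (0.28, adjusted p = 0.0439) and with those spreads (0.25, adjusted p = 0.0259). At an unadjusted p below 0.05 limma gave 0 of 10, 2 of 12 and 4 of 18 genes of these 3 lists in turn, against 3957 of all 16353 genes.

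**Figure D4:**
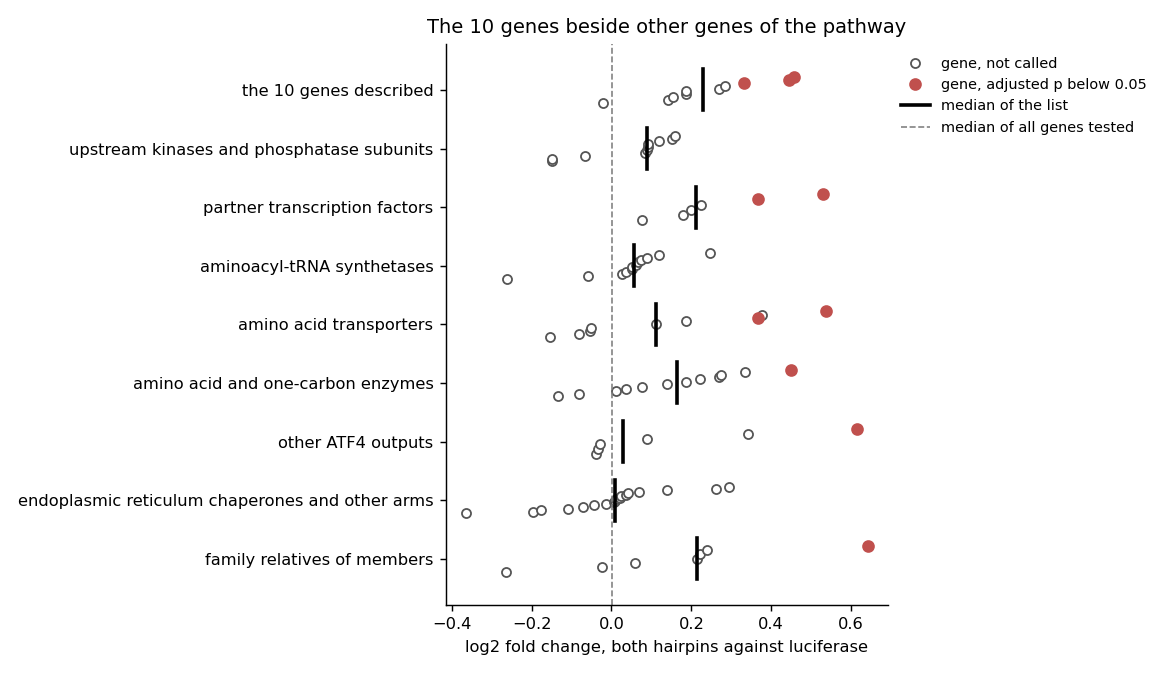
Log2 fold change for both hairpins against luciferase of the 10 genes and of the 8 pathway lists; filled dots are called genes, thick bars are list medians and the dashed line is the median of all genes tested. The 10 genes have the highest median (0.23), close to those of the family relatives (0.21) and the partner transcription factors (0.21). No filled dot lies below 0.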

How the data were processed

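Total RNA of 7 samples was measured on mouse exon arrays. The deposited values are log2 expression values per exon-level probe set, made with RMA and R 2.11.1 per the submitters' processing notes. Package, genome build, filters and scan dates were not given in the sources used here, and scan batches were not examined. RMA draws arrays to a common distribution and would hide a shift of most transcripts.

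Probe sets with exactly 1 gene symbol (311384) were used; older symbols were updated through a RefSeq table of GRCm38.p6 for 45560. Probe sets were kept when their mean over the 7 arrays, knockdown arrays included, passed the array-wide median (6.02). A gene value was the median of its kept probe sets per array (at least 3). Groups were fitted in limma 3.58.1 (R 4.3.3) on all 7 arrays, with p-values adjusted over all 16353 genes, or over all 229811 kept probe sets. Scripts were tested on simulated data. The genes and lists were chosen with earlier results of these data known. Named genes are the 10, called members of each list (at most 4) or otherwise its 2 largest differences, and Mettl3. Precision is limited by the number of arrays. Promoter windows are from RefSeq. Alternatives covered filters, summaries, scaling, spreads, symbols, a replicate block and leaving out arrays.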

Additional observations from a re-analysis of the deposited data

How the results depend on the processing

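Over the 17 other ways of processing, Chac1 stayed called for both hairpins in all and Vldlr in 15. Mthfd2 stayed called in 7 and Atf4, Ddit3, Asns and Sesn2 in none. For hairpin 1 alone the stricter filter called 3 of the 10, Ddit3, Chac1 and Mthfd2, and 1503 of all genes. That filter called 9 probe sets of the 10 genes for both hairpins, in Chac1, Ddit3, Trib3 and Vldlr, and 9172 of all probe sets. For both hairpins the number of the 10 genes called was 3 in the main fit, 6 with the mean of probe sets, 6 with a median polish and 2 to 3 with 1 array left out. For hairpin 1 (2 in the main fit) it was 1 without the filter on dim probe sets, 5 with the mean, 4 with a median polish, 1 to 3 with 1 array left out, and 0 without luciferase replicate 3 and hairpin 1 replicate 2 together, chosen after seeing the data. For hairpin 2 (0) it was 1 with the stricter filter, 4 with the mean, 2 with a median polish, 1 after quantile normalization and 1 with trended and robust spreads. The number of probe sets called (8) was 0 without the filter and 0 to 3 with 1 array left out. For exon usage (2 genes) it was 1 with the stricter filter, 0 with a spread for each probe set and 0 to 3 with 1 array left out. Over all genes 1292 were called for both hairpins, and 605 to 1098 with 1 array left out. For hairpin 1 these were 964 and 271 to 729, and for hairpin 2 619 and 63 to 577. The mean of probe sets called 2840, 2259 and 1626 of all genes for both hairpins, hairpin 1 and hairpin 2. A median polish called 2469, 2072 and 1439. Why the summaries differ was not tested.

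Signs turned for Ddit3 (-0.0924 with the mean, -0.2206 with a median polish, -0.0351 without hairpin 1 replicate 1, range with 1 array left out -0.0351 to 0.4095), for Asns (0.0006 with the mean, 0.0077 after quantile normalization, 0.0159 without luciferase replicate 1, 0.0105 without hairpin 1 replicate 2, range -0.0687 to 0.0159) and for Manf (0.0367 with the mean, 0.0049 with a median polish). None of these values was called.

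With the replicate number as a block, 1 of the 10 genes was called for both hairpins, 1 for hairpin 1 and 0 for hairpin 2, as were 0 probe sets and 0 genes in exon usage. Deviations from group means of same-numbered arrays in different groups were correlated across genes (r = -0.262 to 0.083). In a group of 2 arrays these deviations mirror each other, so the values cannot decide whether the numbers pair the samples. With the numbers of hairpin 1 crossed, a block chosen after seeing the data, 2 were called.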

Other observations

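Several stress genes read apart with the hairpins, though none of these differences passed. Those described were chosen after their values were seen. Others also read apart, among them Eif2ak1 (0.37, limma adjusted p = 0.305), Nupr1 (0.35, adjusted p = 0.377) and Manf (-0.475, adjusted p = 0.435). Between the hairpins 8.78% of all genes had an unadjusted limma p below 0.05. Ddit4, which encodes an inhibitor of mTORC1, was at 7.95, 8.41 and 7.86 with luciferase, 8.71 and 8.78 with hairpin 1 and 8.05 and 8.13 with hairpin 2. It rose with hairpin 1 (0.67, limma adjusted p = 0.0313) and was at 0.01 with hairpin 2 (adjusted p = 0.973); the difference between hairpins was 0.65 (95% interval 0.28 to 1.02, adjusted p = 0.268). Herpud1, of endoplasmic reticulum protein degradation, rose by 0.46 with hairpin 1 (adjusted p = 0.0373) and was at 0.065 with hairpin 2 (adjusted p = 0.792), a difference of 0.39 (0.13 to 0.66, adjusted p = 0.369). Tars, the threonyl-tRNA synthetase gene, fell by 0.46 with hairpin 1 (adjusted p = 0.0267) and was at -0.06 with hairpin 2 (adjusted p = 0.778), a difference of -0.40 (-0.64 to -0.15, adjusted p = 0.316).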
